A study of Mus musculus with 65 samples.

Results

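A set of 600 mouse recombination hotspots was singled out by where MEI4 was found in 4 genotypes. A hotspot here is a row of the deposited wild-type DMC1 list, an interval where meiotic double-strand breaks are made. The rule took rows on chromosomes 1 to 19 that shared at least 1 bp with a MEI4 peak of Spo11KO and with a MEI4 peak of Hormad1KO, and with no MEI4 peak of the wild type or of Iho1KO. The 600 hotspots were 4.51% of the 13314 autosomal hotspots, and the whole list held 13808 on all chromosomes. They are called the Iho1KO-negative gained hotspots below. They were chosen by measured values, the presence or absence of a MEI4 peak in these 4 lists, so a hotspot outside a list may have had no MEI4 or MEI4 under the authors' threshold, and these cannot be told apart.

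The series is a chromatin immunoprecipitation and sequencing (ChIP-seq) study of whole testis, with 65 samples in 36 groups, of which 24 groups have a peak list used here, 1 list per group. Pups were fed WIN 18,466, which blocks retinoic acid production, from 1.5 days after birth for 7 to 10 days, and a dose of retinoic acid then released germ cells into meiosis together. Testes were collected 8 days after that injection, when the labels put leptotene and zygotene spermatocytes at 80 to 95%; these are the early stages of meiotic prophase, when breaks form. All groups shared this treatment and the fixation in 4% formaldehyde. The wild type was C57BL/6JCrl. The knockouts were B6;129P2-Prdm9tm1Ymat/J (Prdm9KO), Spo11tm1Mjn (Spo11KO), Mei4tm1Bdm (Mei4KO), Iho1tm1.2Atot (Iho1KO) and Hormad1tm1.2Atot (Hormad1KO). The labels name the alleles alone, with no Cre driver. Peak lists carry no expression values, so the labelled cell type could not be checked against marker genes.

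In mouse meiosis the methyltransferase PRDM9 binds DNA and sets where breaks fall, SPO11 cuts the DNA, and the recombinase DMC1 coats the single strands that follow. MEI4 and IHO1 belong to the group of proteins that SPO11 needs to make breaks, and IHO1 is held on the chromosome axis through HORMAD1. SYCP3 is a structural protein of the axis from which chromatin loops extend, and CTCF is a DNA-binding architectural protein at loop boundaries. In Spo11KO cells no breaks are made, so a protein found at a hotspot there came without a break.

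Of all autosomal hotspots, 11% met a MEI4 peak in the wild type, 27.8% in Spo11KO, 27.1% in Hormad1KO and 19.0% in Iho1KO. These 4 lists chose the hotspots, so their values are given as a description and no difference is tested on them. The lists held 1566, 3817, 3828 and 2679 MEI4 peaks in that order. Hotspots that met the rule except that they also had MEI4 in Iho1KO numbered 971 and are called the Iho1KO-positive gained hotspots. By the rule they differ from the 600 in the Iho1KO list alone, and they serve as the main comparison. The groups also differed in MEI4 peak width, wild-type DMC1 value and gene and CTCF density, as given below. The comparison is thus not one of the Iho1KO list with all else equal. A further 1465 hotspots had MEI4 in the wild type, and 8797 had MEI4 in none of the 4 genotypes. The remaining 1481 showed other combinations.

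Counted in base pairs, the overlaps and gaps of the rule had wide margins. How close an absent peak was to the authors' threshold cannot be seen from these lists. Among the 600 hotspots, the smallest overlap with a Spo11KO MEI4 peak was 582 bp and with a Hormad1KO MEI4 peak 511 bp. The nearest wild-type MEI4 peak was never closer than 7096 bp (median 588544 bp), and the nearest Iho1KO MEI4 peak never closer than 2271 bp (median 361334 bp), with 2 of 600 hotspots within 5 kb. The 3 smallest overlaps were at chr4:27259765-27261699 (511 bp), in Naaladl2 on chromosome 3 (577 bp) and near the pseudogene Gm13758 on chromosome 2 (582 bp). The 3 smallest gaps were 2271 bp near Gm31673 and 5344 bp near Gm40736, both on chromosome 10, and 3876 bp in A630023P12Rik on chromosome 5. Just outside the rule, hotspots excluded by an overlap of 684 bp near Flg, 692 bp in Scn10a and 694 bp near Gm33963 had wild-type DMC1 values of 933, 199.5 and 3130. As a description of the lists the rule used, the Hormad1KO MEI4 peaks at the 600 hotspots had a median width of 1390 bp, against 1807 bp at the Iho1KO-positive hotspots, and the Spo11KO peaks 1466 against 1677 bp.

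Few of these hotspots lay at promoters. A promoter window, from 250 bases before to 50 bases after a RefSeq gene start (GRCm38.p6, the mm10 assembly), fell in 11 of the 600 hotspots (1.83%, Wilson 95% interval 1.03 to 3.25). The share was 2.78% at Iho1KO-positive hotspots, 2.25% at wild-type MEI4 hotspots, 12.5% at hotspots without MEI4 and 9.04% over all autosomal hotspots. These shares were not compared between hotspots of similar wild-type DMC1 value. The 11 hotspots held 12 windows of 11 genes. Of these windows, 3 met a peak of an IHO1 or SYCP3 list and are printed here, with the 1 whose start site was closest to a hotspot's centre; they were chosen after their values were seen. The window of LOC115487199 met a CTCF peak. The sequences are from RefSeq, run 5′ to 3′ on the gene's strand, and have CpG dinucleotides in capitals.

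Jtb: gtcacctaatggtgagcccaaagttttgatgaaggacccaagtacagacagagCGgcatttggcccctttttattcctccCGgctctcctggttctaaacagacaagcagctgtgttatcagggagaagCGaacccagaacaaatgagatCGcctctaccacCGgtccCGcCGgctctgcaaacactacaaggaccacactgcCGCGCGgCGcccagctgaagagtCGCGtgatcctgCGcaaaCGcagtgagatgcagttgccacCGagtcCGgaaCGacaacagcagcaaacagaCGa

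Msh3: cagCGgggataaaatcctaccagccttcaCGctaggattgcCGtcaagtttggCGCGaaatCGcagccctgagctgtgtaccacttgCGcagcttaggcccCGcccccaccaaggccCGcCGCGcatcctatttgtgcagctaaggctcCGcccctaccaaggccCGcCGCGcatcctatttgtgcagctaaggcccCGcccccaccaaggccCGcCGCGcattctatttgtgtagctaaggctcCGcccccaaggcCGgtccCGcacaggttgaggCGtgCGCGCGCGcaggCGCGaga

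Zfp941: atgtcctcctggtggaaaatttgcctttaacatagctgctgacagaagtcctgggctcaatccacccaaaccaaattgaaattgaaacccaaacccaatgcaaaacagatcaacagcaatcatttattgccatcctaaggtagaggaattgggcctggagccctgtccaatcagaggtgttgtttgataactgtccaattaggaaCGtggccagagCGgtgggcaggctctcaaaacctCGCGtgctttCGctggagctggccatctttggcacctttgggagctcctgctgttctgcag

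Gm39090: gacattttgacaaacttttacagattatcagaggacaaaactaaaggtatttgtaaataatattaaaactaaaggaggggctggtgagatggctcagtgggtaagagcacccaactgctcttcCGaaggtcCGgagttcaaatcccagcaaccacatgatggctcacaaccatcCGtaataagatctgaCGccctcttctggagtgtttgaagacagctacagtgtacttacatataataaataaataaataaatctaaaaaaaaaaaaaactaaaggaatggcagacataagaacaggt

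The Jtb window (chr3:90231347-90231646, plus strand) met SYCP3 peaks of Spo11KO and of Iho1KO and held 19 CpG dinucleotides. The window of Msh3, a mismatch repair gene, lies at chr13:92354954-92355253 on the minus strand, met a SYCP3 peak of Spo11KO and held 29. These were the highest CpG counts among the 12 windows, whose lowest was 1. Of 32851 promoter windows of the same length in the table, 28.1% held at least 19 CG and 12.9% at least 29, with a median of 7. The Zfp941 window (chr7:140822129-140822428, minus strand), of a zinc finger gene, met an IHO1 peak of Spo11KO and held 5. The Gm39090 window (chr7:127696120-127696419, plus strand) met none of these lists, held 4, and its start site was 61 bp from the hotspot's centre, the closest of the 12. The hotspots at Jtb, Msh3 and Zfp941 carried deposited wild-type values of 872, 360 and 522, and none of these 3 was in the Hormad1KO DMC1 list.

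Most Iho1KO-negative gained hotspots stood in the upper part of the wild-type DMC1 list. That all are in this list, and that none has a wild-type MEI4 peak, was set by the rule. The deposited wild-type DMC1 value is a signal in the authors' own unit and is compared only within its list. It ran from 29.5 to 8581 over the 600 hotspots, with a median of 572 and quartiles of 365 and 941. The median was 128 over all autosomal hotspots and 73.0 at the 8797 hotspots without MEI4. Iho1KO-positive gained hotspots had a median of 688 (quartiles 387 and 1324), so these groups overlapped over most of their range. Hotspots with wild-type MEI4 stood higher, at 1500 (902 and 2636). When autosomal hotspots were ranked into 10 equal classes by this value, 474 of the 600 (79.0%) were in the 3 highest classes, which began at 320 and held 30% of hotspots. The share was 81.4% of Iho1KO-positive, 96.7% of wild-type MEI4 and 7.03% of hotspots without MEI4. The 600 hotspots were most frequent in class 9, where they made up 15.7% of hotspots, and made up 6.46% of class 10, where 65.4% had wild-type MEI4. Classes 8 and 9 thus held most of them.

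**Figure D1:**
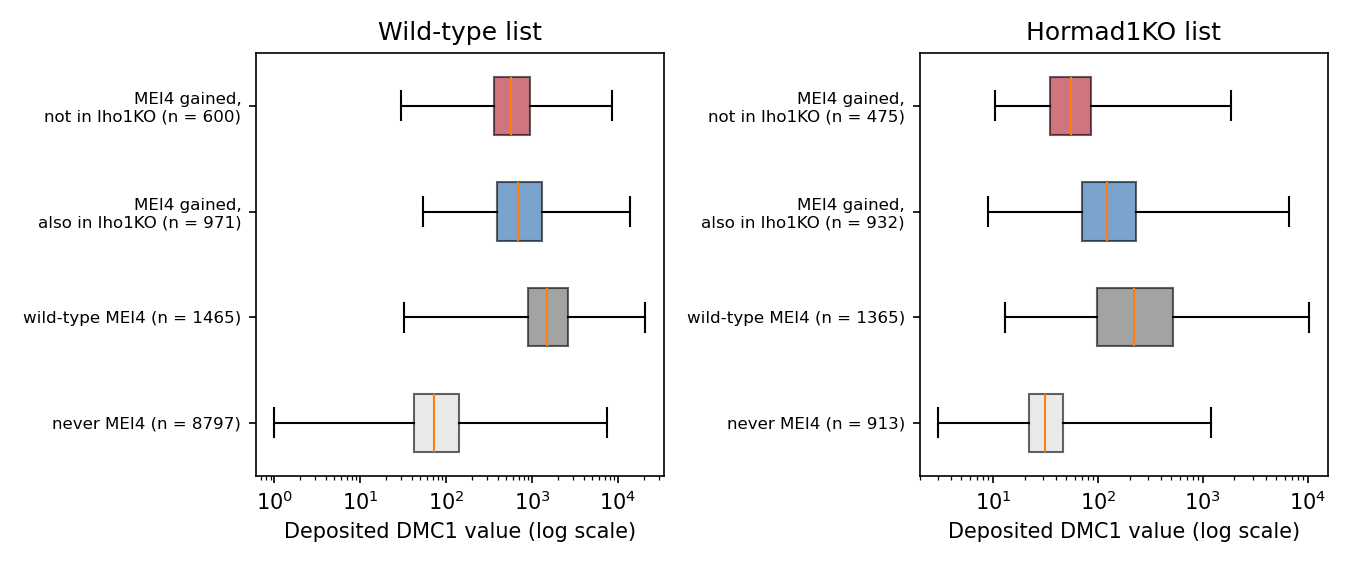
Deposited DMC1 values by MEI4 class in the wild-type list (left) and, for hotspots in both DMC1 lists, in the Hormad1KO list (right), each on its own log axis. Boxes give the quartiles, the inner line the median and whiskers the lowest and highest value; the Iho1KO-negative gained hotspots have a median of 572 on the left and 55.0 on the right, below the 688 and 123 of the Iho1KO-positive ones.

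Most of these hotspots were also found in the DMC1 list of Hormad1KO, which has 5002 rows and was not used by the rule. An overlap was seen at 475 of 600 (79.2%, Wilson 75.7 to 82.2), against 34.2% of all autosomal hotspots. The share was 96.0% at the Iho1KO-positive gained hotspots. The difference was -16.8 percentage points (Newcombe 95% interval -20.4 to -13.4) and had the same sign on 19 of 19 chromosomes. Weighted over the classes of wild-type DMC1 value that held both groups (a Mantel-Haenszel mean), it was -15.3 points (-18.6 to -12.1). With only the 50% of the Hormad1KO list that had the higher values it was -45.5 (-49.8 to -40.8). A difference is called where its interval excludes 0. Intervals cover counting error only and treat hotspots as independent, and with 1 list per group none of the differences has a replicate check. Against hotspots with wild-type MEI4 (93.2%) the difference was -14.0 points, but within DMC1 classes it was -2.48 (-6.09 to 1.14) and was not called. Hotspots without MEI4 were found in 10.4%, a difference of 68.8 points (65.3 to 71.9), and of 33.6 (29.1 to 38.2) within DMC1 classes. The rule asked for a MEI4 peak in Hormad1KO, the genotype of this DMC1 list, and the hotspots without MEI4 lack one by definition.

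Within the Hormad1KO list the values followed the same order of classes. The 475 hotspots had values of 10.5 to 1854 with a median of 55.0 (quartiles 34.8 and 86.2), under the list's own median of 72.0. The median was 123 over 932 Iho1KO-positive hotspots and 222 over 1365 with wild-type MEI4. The 125 hotspots not found in Hormad1KO had a median wild-type value of 370 (highest 1259), and those found had 646. Across the 475 hotspots the rank correlation of the values in the 2 lists was 0.41, against 0.55 and 0.58 over the Iho1KO-positive and wild-type MEI4 hotspots. These correlations are descriptions across hotspots of the same 2 lists.

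Of the 16 IHO1, HORMAD1 and SYCP3 lists, IHO1 of Hormad1KO showed the largest difference between the gained hotspots. In that list, 69 of the 600 Iho1KO-negative gained hotspots met an IHO1 peak (11.5%, Wilson 9.19 to 14.3), close to the 12.7% over all autosomal hotspots. At the Iho1KO-positive ones the count was 502 of 971 (51.7%). The difference was -40.2 points (-44.1 to -36.0), lower on 19 of 19 chromosomes and -35.5 (-39.5 to -31.5) within DMC1 classes. With only the wider 50% of IHO1 peaks it was -18.8 (-21.7 to -15.8). Hotspots with wild-type MEI4 met one in 67.8% and hotspots without MEI4 in 0.148%, so the 600 stood between these classes. Within DMC1 classes the 600 were 8.31 points (5.99 to 10.6) above the hotspots without MEI4.

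The same order of classes was seen in Spo11KO. An IHO1 peak was met at 143 of the 600 (23.8%, Wilson 20.6 to 27.4; all autosomal hotspots 14.6%), at 50.3% of Iho1KO-positive, 72.4% of wild-type MEI4 and 0.591% of hotspots without MEI4. The difference from the Iho1KO-positive hotspots was -26.4 points (-30.9 to -21.7), lower on 19 of 19 chromosomes and -22.2 (-26.7 to -17.7) within DMC1 classes. With the wider 50% of IHO1 peaks it was -13.0 (-16.2 to -9.64). IHO1 was met in both genotypes at 30 hotspots. This was 21.0% of the 143 with IHO1 in Spo11KO, where 11.5% of all 600 met IHO1 of Hormad1KO. It was 43.5% of the 69 with IHO1 in Hormad1KO, where 23.8% of all 600 met IHO1 of Spo11KO. At Iho1KO-positive hotspots 337 met both, or 69.1% and 67.1% of those lists' hotspots, where the shares of all 971 were 51.7% and 50.3%. The overlap over all autosomal hotspots is not given here. Whether the deficit differed between Hormad1KO and Spo11KO was not tested.

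The deficit was seen in each of the 3 highest DMC1 classes. Class 10, the highest, ran from 1246 to 20822, so DMC1 values could still differ between the groups inside it. In this class IHO1 of Hormad1KO was met at 27 of 86 Iho1KO-negative hotspots (31.4%) and 214 of 262 Iho1KO-positive (81.7%). It was met at 81.4% of wild-type MEI4 hotspots. In class 9 the shares were 11.1%, 52.2% and 51.8%, and in class 8 they were 5.56%, 39.7% and 38.3%. In these 3 classes the Iho1KO-positive and wild-type MEI4 hotspots had shares close to each other, and the Iho1KO-negative ones lay below both. In class 7 the shares were 12.5%, 26.1% and 46.2%, the last of only 26 hotspots. In Spo11KO the shares were 39.5%, 80.5% and 84.5% in class 10, 30.8%, 54.3% and 60.2% in class 9, 18.9%, 35.4% and 43.3% in class 8, and 11.1%, 21.0% and 38.5% in class 7. The Iho1KO-negative share was the lowest of the 3 in each of these classes. Hotspots with an IHO1 peak in Hormad1KO were the stronger ones: their median wild-type DMC1 value was 1055 against 554 without, and in the Hormad1KO DMC1 list 122 against 50.2.

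**Figure D2:**
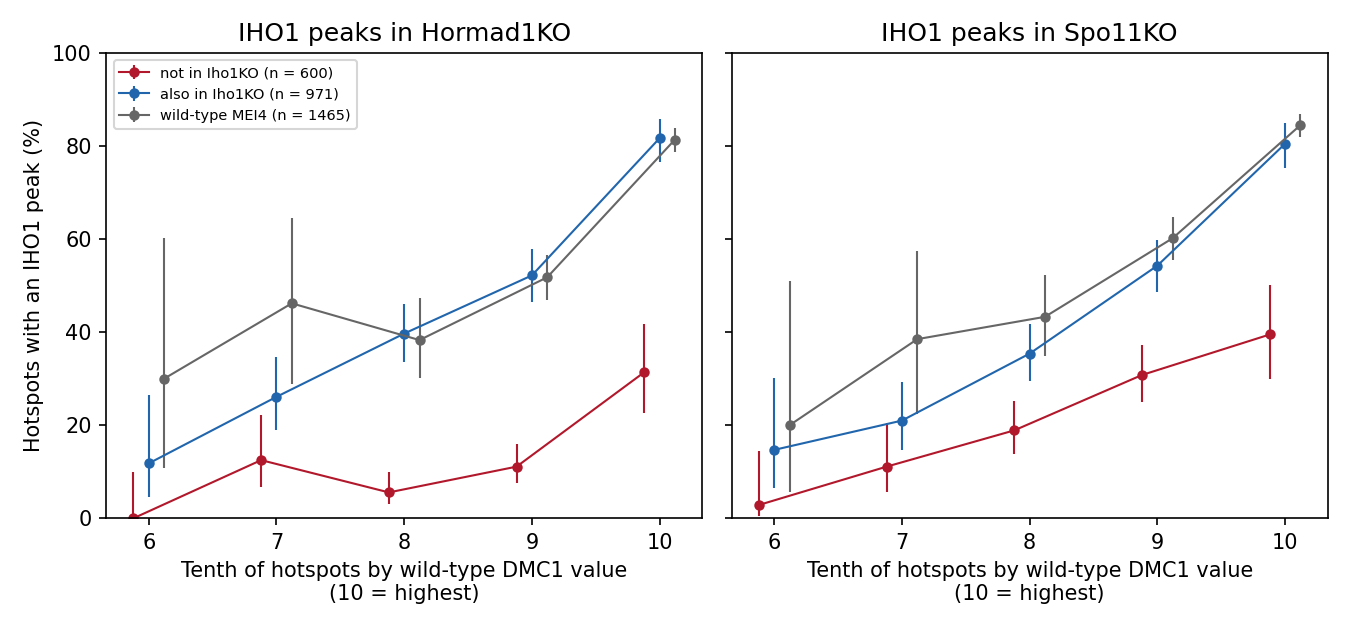
Share of hotspots with an IHO1 peak in Hormad1KO (left) and Spo11KO (right) in classes 6 to 10 of 10 by wild-type DMC1 value, with Wilson 95% intervals. The Iho1KO-negative gained hotspots ("not in Iho1KO") reach 31.4% and 39.5% in class 10, against 81.7% and 80.5% for the Iho1KO-positive ones ("also in Iho1KO"); classes 6 and 7 hold only 10 and 26 wild-type MEI4 hotspots.

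The width of the Hormad1KO MEI4 peak, which comes from a list that chose the hotspots, varied along with the IHO1 share and is given as a description. With gained hotspots in 4 equal classes by this width, 285 of the 600 Iho1KO-negative hotspots had the narrowest peaks (511 to 1370 bp) and 56 the widest (1999 bp and over). In the narrowest class IHO1 of Hormad1KO was met at 5.26% of them and 25.9% of Iho1KO-positive hotspots, and in the widest at 32.1% and 71.2%. Within these width classes the difference from Iho1KO-positive hotspots was -28.3 points (-33.0 to -23.6) for IHO1 of Hormad1KO. For IHO1 of Spo11KO it was -20.8 (-26.0 to -15.5). Both were smaller than without these classes. Widths still varied inside a class, in the widest from 1999 to 6188 bp, and these values are a description, not a test. Whether peak width is a cause of the IHO1 difference was not tested.

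IHO1 in the other genotypes was rare at these hotspots. In the wild type 20 of the 600 met an IHO1 peak (3.33%, all autosomal hotspots 4.08%), against 9.17% of Iho1KO-positive and 25.6% of wild-type MEI4 hotspots. The differences were -5.83 (-8.13 to -3.42) and -22.3 points (-24.8 to -19.5). Within DMC1 classes they were smaller, -2.36 (-4.33 to -0.391) and -7.39 (-9.86 to -4.92), and still called. In Mei4KO an IHO1 peak was met at 2 hotspots (0.333%, background 0.293%). In Prdm9KO it was 0 of 600, which allows a share of up to 0.5% (background 0.150%). MEI4 in Prdm9KO, the only MEI4 list that the rule left unused, was also at 0 of 600 (background 0.0601%). At least 1 of the 5 IHO1 lists was met at 31.3% of the 600 (all autosomal hotspots 18.8%), at 68.0% of Iho1KO-positive and at 86.3% of wild-type MEI4 hotspots.

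Axis proteins were found at few of these hotspots, and less often than at the other MEI4 classes. SYCP3 of the wild type was met at 48 of the 600 (8.00%, Wilson 6.09 to 10.4), near the 7.56% of all autosomal hotspots. The share was 19.3% at Iho1KO-positive hotspots, a difference of -11.3 points (-14.5 to -7.86), lower on 19 of 19 chromosomes and -4.40 (-7.01 to -1.79) within DMC1 classes. It was 46.6% at wild-type MEI4 hotspots, a difference of -38.6 (-41.7 to -35.0) that moved to -14.0 (-17.6 to -10.5) within DMC1 classes. The DMC1 value thus moved with much of this difference. The 48 hotspots with SYCP3 stood at a median DMC1 value of 1932 in the wild type, and the other 552 at 550. In class 10 SYCP3 was met at 39.5% of the 600, 63.4% of Iho1KO-positive and 68.8% of wild-type MEI4 hotspots.

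SYCP3 in the knockouts was rarer still. In Spo11KO it was met at 19 of the 600 (3.17%; background 5.95%), against 12.7% of Iho1KO-positive hotspots, a difference of -9.50 points (-12.0 to -6.90). In Iho1KO it was 5 (0.833%; background 6.56%) against 3.19%, a difference of -2.36 (-3.75 to -0.914). In Hormad1KO it was 3 (0.5%; background 1.46%) against 3.40%, a difference of -2.90 (-4.27 to -1.54). Mei4KO and Prdm9KO had 2 hotspots each (0.333%; background 1.11% and 1.10%), with no called difference from the Iho1KO-positive hotspots. Per the labels, the SYCP3 groups of Spo11KO, Iho1KO and Prdm9KO have 1 sample and the others have 2.

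HORMAD1, which anchors IHO1 to the axis, showed the same order. In the wild type it was met at 20 of the 600 (3.33%; background 4.66%), 12.0% of Iho1KO-positive and 27.7% of wild-type MEI4 hotspots. The difference from the Iho1KO-positive hotspots was -8.72 points (-11.2 to -6.13), and -4.35 (-6.40 to -2.31) within DMC1 classes. In Spo11KO it was 31 (5.17%; background 5.30%) against 13.4%, a difference of -8.22 (-11.0 to -5.34). In Mei4KO it was 7 (1.17%; background 2.04%), in Iho1KO 5 (0.833%; background 1.43%) and in Prdm9KO 0 of 600 (background 0.391%). None of these 3 differed from the Iho1KO-positive hotspots by a called amount, although in Iho1KO the difference within DMC1 classes, -1.05 (-2.05 to -0.0431), was called.

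Over the 16 lists, 9 differed from the Iho1KO-positive hotspots by a called amount and 11 from the wild-type MEI4 hotspots, in each case with the lower share at the Iho1KO-negative ones. Within DMC1 classes these counts were 10 and 15, again all lower. None of the 16 lists was met at 393 of the 600 (65.5%), against 30.4% of Iho1KO-positive and 10.5% of wild-type MEI4 hotspots. This share is not given over all autosomal hotspots, so 65.5% is not read as a trait of the 600. At least 1 list was met at 18.8% of all autosomal hotspots for IHO1, 9.17% for HORMAD1 and 15.1% for SYCP3. The shares were 31.3%, 7.83% and 10.2% of the 600. A single list was met at 123, and 2 lists at 50. Where the wild-type lists met a hotspot, they often met together: of the 20 hotspots with wild-type IHO1, 16 had wild-type SYCP3 and 14 had wild-type HORMAD1. At Iho1KO-positive hotspots 81 of 89 with wild-type IHO1 had SYCP3, and at wild-type MEI4 hotspots 331 of 375. This co-occurrence is not given over all autosomal hotspots, so it is not read as a trait of the 600.

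The 5 hotspots with the highest DMC1 values met 4 to 6 of the 16 lists each. The strongest of the 600 lay in Cyp2j6, a cytochrome P450 gene, at chr4:96529994-96532214. Its wild-type DMC1 value was 8581, rank 62 of 13808, its Hormad1KO value 1055, and it met 6 of the 16 lists, including IHO1 of the wild type, Spo11KO and Hormad1KO. The next was on chromosome 15 near the pseudogene Gm18282, with values of 7740.5 and 1854 and 4 lists, no protein-coding gene and no CTCF peak within 500 kb. The hotspot at Arf6, a small GTPase gene on chromosome 12, had 7212 and 830.5, met 4 lists and a CTCF peak. Those near Gm23022 on chromosome 5 (7184) and in Gm41534 on chromosome 17 (7134.5) met 5 and 4 lists. All 5 met wild-type IHO1, HORMAD1 and SYCP3 peaks.

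The weakest hotspots differed among themselves. Those in Gm2762 on chromosome 13 (29.5) and in Crcp on chromosome 5 (38) met none of the 16 lists. The one in Rmdn3 on chromosome 2 (46) met 6, among them IHO1 of Spo11KO and SYCP3 of Prdm9KO, where SYCP3 was met at only 2 of the 600. None of these 3 was in the Hormad1KO DMC1 list.

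The hotspot that met most lists was a weak one. It lay in Tmem191c at chr16:17269957-17271909, met 10 of the 16 lists and a CTCF peak, had a wild-type DMC1 value of 103 (rank 7783) and was not in the Hormad1KO DMC1 list. Its lists included SYCP3 of Prdm9KO and IHO1 of Mei4KO, where 2 of the 600 hotspots each were met. Next came a hotspot in Grm7, a metabotropic glutamate receptor gene, with 7 lists and a value of 4341. Cyp2j6, Cdkal1 (4011.5) and a site on chromosome 9 near Gm25904 (3340.5) met 6, and are the 3 with the highest DMC1 value of the 7 hotspots at 6 lists.

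The Iho1KO-negative gained hotspots lay in gene-poorer regions than the Iho1KO-positive ones, and in regions near the average of all autosomal hotspots. Within 500 kb to each side, the median number of protein-coding genes was 7 (quartiles 3 and 12), the same as the median of all autosomal hotspots, against 9 at Iho1KO-positive and 9 at wild-type MEI4 hotspots. The median number of CTCF peaks was 14 (7 and 23), against 18, 17 and, over all, 15. More genes than the autosomal median were near 45.3% of the 600, 48.0% of all autosomal hotspots and 59.7% of Iho1KO-positive hotspots, a difference of -14.4 points (-19.4 to -9.33), lower on 15 of 19 chromosomes and -17.3 (-22.2 to -12.5) within DMC1 classes. For CTCF the shares were 46.0% of the 600, 47.0% of all and 60.1% of Iho1KO-positive hotspots, a difference of -14.1 (-19.1 to -9.07), lower on 17 of 19 chromosomes and -18.5 (-23.2 to -13.8) within DMC1 classes. Neighbouring hotspots share these counts, which the intervals do not allow for. The number of other hotspots nearby had a median of 6 in each class. Against hotspots without MEI4, of which 44.3% had more genes and 42.8% more CTCF peaks nearby than the median, the differences were 0.989 (-3.09 to 5.12) and 3.25 points (-0.837 to 7.38), not called. Within DMC1 classes they were 21.1 (16.4 to 25.8) and 27.6 (23.2 to 32.1). Within these classes the 600 hotspots thus more often had many genes and CTCF peaks nearby than hotspots without MEI4, and less often than the Iho1KO-positive ones.

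Seen the other way, the share of gained hotspots that were Iho1KO-negative fell with density. Of the 1571 gained hotspots 600 (38.2%, Wilson 35.8 to 40.6) were Iho1KO-negative. In 4 classes by CTCF peaks nearby, from fewest (0 to 8) to most (23 to 57), the shares were 50.4%, 41.2%, 33.7% and 30.9%. By protein-coding genes (0 to 3 up to 14 to 70) they were 50.4%, 41.1%, 35.6% and 28.8%. The IHO1 deficit was seen at each end of this range: in the class with fewest CTCF peaks IHO1 of Hormad1KO was met at 14.2% of Iho1KO-negative and 55.4% of Iho1KO-positive hotspots, and in the class with most at 10.5% and 50.6%. Wild-type SYCP3 at the Iho1KO-negative hotspots was 16% in the first of these classes and 5.88% in the last.

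**Figure D3:**
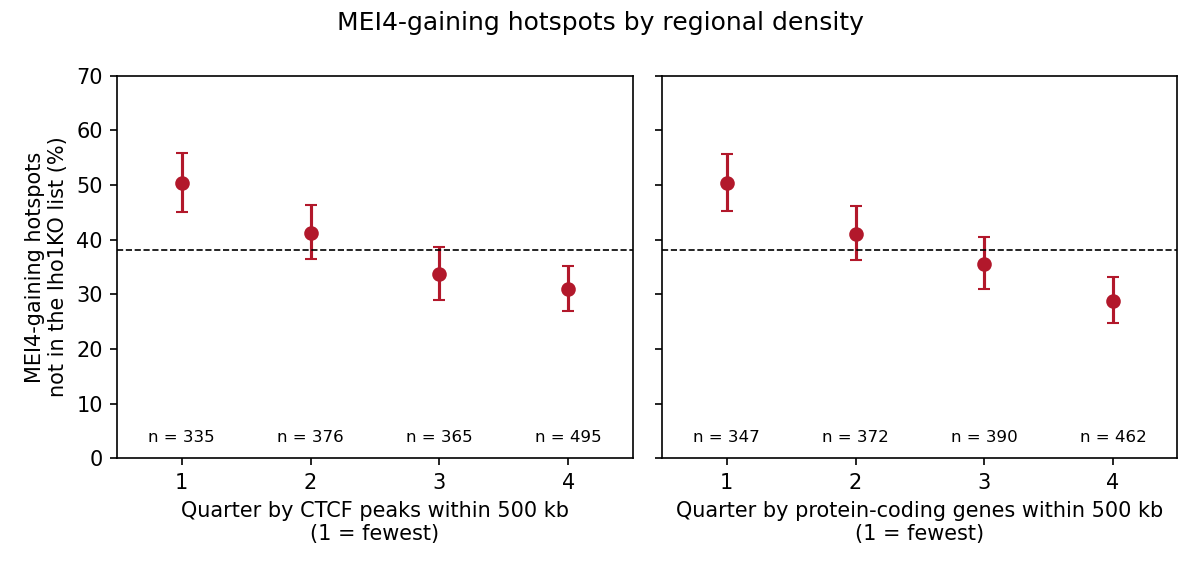
Share of the 1571 gained hotspots that are Iho1KO-negative, in 4 classes by the number of CTCF peaks (left) or protein-coding genes (right) within 500 kb, with Wilson 95% intervals and the overall 38.2% as a dashed line. The share falls from 50.4% to 30.9% and from 50.4% to 28.8%.

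At the hotspots themselves, neither CTCF peaks nor gene ends gave a called difference from the Iho1KO-positive ones. A CTCF peak was met at 40 of the 600 (6.67%, Wilson 4.93 to 8.95; all autosomal hotspots 8.61%) and at 7.93% of Iho1KO-positive hotspots, a difference of -1.26 points (-3.81 to 1.49). Against wild-type MEI4 hotspots (9.56%) it was -2.89 (-5.26 to -0.210), which was not called with an interval widened for the 16 differences of the family or with an overlap of 50%; within DMC1 classes it was -5.54 (-8.37 to -2.70), called. The median distance to the nearest CTCF peak was 26.4 kb, against 19.8 and 18.3 kb. An end of a protein-coding gene, widened by 1 kb, was met at 36 of the 600 (6.00%; background 13.3%), at 6.39% of Iho1KO-positive hotspots and at 16.9% of hotspots without MEI4. The difference from the Iho1KO-positive hotspots was -0.385 (-2.76 to 2.20). From the hotspots without MEI4 it was -10.9 (-12.7 to -8.57), but within DMC1 classes it was -1.16 (-3.59 to 1.26) and was not called.

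Genes that held these hotspots had a higher median length than those of the other MEI4 classes. A protein-coding gene body was met at 331 of the 600 (55.2%; background 57.4%), against 62.8% of Iho1KO-positive hotspots, a difference of -7.66 points (-12.6 to -2.66). The genes at these 331 hotspots had a median length of 140 kb, against 102 kb for 610 Iho1KO-positive and 99.3 kb for 890 wild-type MEI4 hotspots. The 331 hotspots lay in 314 genes, of which 23 held 2 or more and 3 genes held 3. Ptprt, a receptor tyrosine phosphatase gene of 1139 kb, held 3 of its 8 hotspots; Epha6, an ephrin receptor gene of 969 kb, held 3 of 5; and Snd1, which encodes a Tudor domain nuclease (455 kb), held 3 of 8. None of the 3 genes held an Iho1KO-positive gained hotspot, and Snd1 alone held hotspots with wild-type MEI4, 2 of them.

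Neighbours of these hotspots were of the same kind somewhat more often than neighbours of hotspots at large. Among the other hotspots within 500 kb of an Iho1KO-negative gained hotspot, 6.44% were of the same kind (248 of 3853 ordered pairs, each pair counted from both ends). The share was 4.45% around all autosomal hotspots and 4.55% around Iho1KO-positive ones. The Wilson interval of the 6.44% (5.70 to 7.26) treats these pairs as independent, which they are not, so it is too narrow. Iho1KO-positive hotspots made up 13% of the neighbours of their own kind, against 7.03% around all. The median distance to the nearest hotspot of the same kind was 1050 kb, and the smallest 8.93 kb; 297 of 600 had one within 1 Mb and 46 within 100 kb. Windows of 1 Mb that start at one of these hotspots mostly held that one alone (421 of 600), and 8 held 4, the highest count.

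Of the 8 windows tied at 4, the 3 non-overlapping ones with the highest summed DMC1 value are described. On chromosome 6 at 27900509 to 28867874, 4 of 13 hotspots were Iho1KO-negative, 1 in Grm8 and 3 in Snd1, with wild-type DMC1 values of 828.5, 692, 348 and 2241.5. None of the 13 was Iho1KO-positive and 2 had wild-type MEI4. On chromosome 2 at 161136934 to 161896654 it was 4 of 8, 2 of them in Ptprt, with values of 1239.5, 475, 608.5 and 298.5. On chromosome 12 at 33044827 to 33582350 it was 4 of 5, in Cdhr3, Atxn7l1, the antisense transcript Atxn7l1os2 and near Gm9368, with values of 554, 808.5, 509.5 and 496. The windows on chromosomes 2 and 12 held no Iho1KO-positive and no wild-type MEI4 hotspot.

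Every autosome held Iho1KO-negative gained hotspots. Their share of a chromosome's hotspots ran from 2.83% (23 of 814) on chromosome 3 to 6.02% (43 of 714) on chromosome 11, and the interval of 1 of 19 chromosomes, chromosome 3, left out the autosomal 4.51%. As a share of gained hotspots they ran from 29.8% on chromosome 9 to 60.6% (20 of 33, Wilson 43.7 to 75.3) on chromosome 18, the one chromosome whose interval left out 38.2%. The last 5 Mb of a chromosome held 8 of the 600 (1.33%; all autosomal hotspots 3.77%), against 1.44% of Iho1KO-positive and 4.91% of wild-type MEI4 hotspots. The difference from the last was -3.58 points (-4.98 to -1.96) and -7.08 (-9.20 to -4.97) within DMC1 classes.

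**Figure D4:**
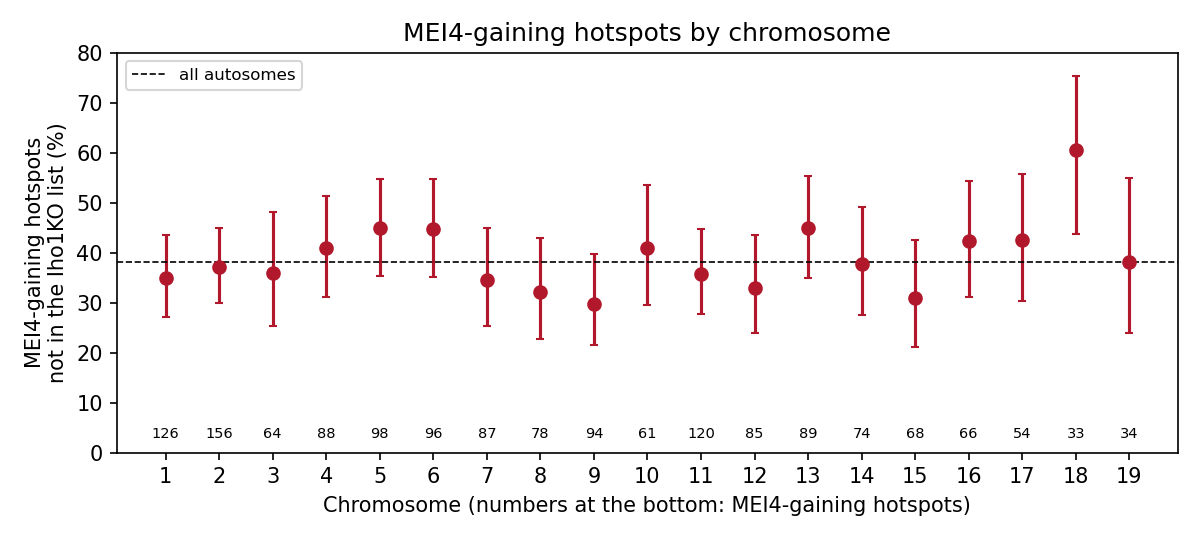
Share of gained hotspots that are Iho1KO-negative on each autosome, with Wilson 95% intervals; numbers at the bottom count the gained hotspots and the dashed line marks 38.2%. Chromosome 18 stands at 60.6% with 33 gained hotspots, and chromosome 9 is lowest at 29.8%.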

How the data were processed

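ChIP-seq peak lists of mouse testis were used as the authors deposited them. Bowtie2, MACS2 and mm10 are named in the submitters' processing notes; peak thresholds and pooling of replicates are not given in the sources used here. The series' design text says that each protein's data had the signal of its own knockout subtracted. The deposited protein lists give positions only. The DMC1 lists add a deposited signal value and the CTCF list a deposited score, which was not used. Sequencing depth is unknown. Hotspots, lists and comparisons were chosen with earlier results of these data known.

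Peaks were joined by position (at least 1 bp) with numpy 2.4.6 and pandas 2.3.3. Shares carry Wilson and their differences Newcombe 95% intervals, and Mantel-Haenszel differences were taken over 10 classes of DMC1 value. No p-values were computed. The scripts were tested on simulated data. Genes and promoters were taken from RefSeq (GRCm38.p6; 21887 protein-coding genes). Groups follow the sample labels.

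Named sites were the 5 highest and 3 lowest DMC1 values, the 5 hotspots in most lists (ties by DMC1 value), the 3 windows of 1 Mb with most hotspots (ties by summed DMC1 value), and the nearest to the limits of the rule. None of these held a promoter window, so the printed promoters and the genes with 3 hotspots were chosen after their values were seen. Alternatives were a 50% overlap, 1 kb at hotspot centres, and the 50% of each list with the wider peaks, or the higher values where a list has them. Others left out the last 5 Mb of chromosomes 4, 9 and 13, near misses within 5 kb or peaks shared by hotspots. Further ones were intervals widened for 16 differences, windows of 250 kb and 1 Mb, and DMC1 classes. Classes by CTCF count and MEI4 width were added after the data were examined. The other 12 groups were not used here.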

Additional observations from a re-analysis of the deposited data

How the results depend on the processing

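No paired analysis was possible because each group has 1 peak list and the lists carry no replicates; for the same reason leaving out a replicate was not possible. Over 21 results and 167 alternative values, 159 kept their direction and their side of 0, or, for values with no test, moved less than their interval. Values that kept their call could still move: with the wider or stronger 50% of each list, the differences from Iho1KO-positive hotspots went from -40.2 to -18.8 points for IHO1 of Hormad1KO, from -26.4 to -13.0 for IHO1 of Spo11KO, from -9.50 to -6.12 for SYCP3 of Spo11KO and from -16.8 to -45.5 for Hormad1KO DMC1. From wild-type MEI4 hotspots they went to -36.2, -32.0, -15.4 and -50.9. In classes of MEI4 width, the differences from Iho1KO-positive hotspots went to -28.3 for IHO1 of Hormad1KO and -20.8 for IHO1 of Spo11KO. In the same classes they went from -11.3 to -3.81 for wild-type SYCP3 and from -8.72 to -4.04 for wild-type HORMAD1. The difference in shares at gene ends from the Iho1KO-positive hotspots, not called, changed sign to 0.622 points in classes of CTCF count and to 0.212 in classes of MEI4 width. The CTCF difference from wild-type MEI4 hotspots was no longer called with 50% overlap (-1.96), with the interval widened for 16 differences (-2.89, interval -6.39 to 1.31) or in classes of CTCF count (-2.18). Within DMC1 classes the Hormad1KO DMC1 difference from wild-type MEI4 hotspots (-2.48) was no longer called, and the gene-end difference from them (-2.83) became called. With a 250 kb window, 39.8% of the 600 hotspots had more genes nearby than the median, against 45.3% with the window used above. The share of all autosomal hotspots above the median is not given for the 250 kb window. Whether the 600 hotspots moved relative to all autosomal hotspots thus cannot be told from these values. The cause of these changes was not tested. Depth and thresholds are unknown, so a hotspot outside a list may have been under its threshold.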
